A study of Homo sapiens with 18 samples.

Results

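The HOX genes and their TALE partners are a family of homeodomain transcription factors, and their transcripts were followed in A375 cells, an established human melanoma line. The members were all protein-coding genes whose symbol names a gene of the HOXA, HOXB, HOXC or HOXD cluster or a PBX, MEIS, PKNOX or TGIF gene. This gave 50 genes of the 58721 identifiers in the count table, namely 39 HOX genes (11 HOXA, 10 HOXB, 9 HOXC and 9 HOXD) and 11 TALE genes. The rule used no measured value, but it was set with earlier results of these data known.

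RNA was sequenced from 6 groups of 3 libraries each, and the study asked how loss of TADA2B and overexpression of SOX10 act together on the transcriptome. TADA2B is an adaptor subunit of the SAGA histone acetyltransferase complex, and SOX10 encodes an SRY-box factor that specifies neural crest cells and melanocytes. Knockout cells carried 1 of 2 guides against TADA2B (guide 1 or guide 2), with SOX10 overexpression in one pair of groups and without it in the other pair. Control cells carried a guide against GFP, which the labels call WT, likewise with and without SOX10 overexpression. All groups were A375 cells from one supplier, grown in DMEM with fetal bovine serum. Whether the knockout cells were clones or pools, and which vector carried SOX10, is not given in the sources used here. The labels do not say that the 3 libraries of a group came from separate cultures, so p-values measure only the spread between these libraries, which may be technical.

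HOX genes lie in 4 clusters, and their order along the chromosome follows the position along the body at which they act in the embryo; the body-axis roles given here for single HOX genes are mostly known from mouse. Adult cells often keep part of the HOX pattern of the body site from which they came. HOX proteins bind DNA weakly on their own and gain specificity by pairing with PBX proteins, while MEIS and PKNOX proteins bind PBX and hold it in the nucleus. TGIF proteins are TALE homeodomain repressors that bind sites like those of MEIS and restrain retinoid and TGF-beta responses. Polycomb complexes keep HOX clusters silent, and Trithorax or MLL complexes keep them active.

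Promoter windows of members are shown first, because they hold the letters that PBX and HOX proteins bind as a pair and so let a reader see where members of the family carry sites of the family's own kind. RefSeq promoter windows of build GRCh38.p14, each from 250 bases before to 50 bases after a transcript start, were at hand for 29 member genes, in 45 windows. The PBX-HOX motif TGATTNAT, searched on both strands, was found in 6 of the 45 member windows (13.3%), against 2.82% of all 35116 windows. The windows belonged to 4 genes, HOXA2, HOXD11, MEIS2 and TGIF1, and TGIF1 held it in 3 of its 7 windows, which start near one another. In the windows printed here in lower case, capitals mark every match to the PBX-HOX motif, to the MEIS and PKNOX motif TGACAG or to the E-box CACGTG, on either strand, and no 2 matches overlap. HOXA2 (chr7:27102634-27102933, minus strand) held a PBX-HOX match from base 137 and a TGACAG match from base 204, MEIS2 (chr15:37098647-37098946, minus strand) a PBX-HOX match from base 187, and 2 of the TGIF1 windows (chr18:3448181-3448480 and chr18:3451343-3451642, plus strand) PBX-HOX matches from base 250 and base 146. HOXD13 (chr2:176092471-176092770, plus strand), with an E-box from base 120, is shown as the HOXD gene with the largest called rise in knockout cells, and PBX4 (chr19:19618638-19618937, minus strand) as a TALE gene that changed in both main comparisons and whose window held no match.
HOXA2: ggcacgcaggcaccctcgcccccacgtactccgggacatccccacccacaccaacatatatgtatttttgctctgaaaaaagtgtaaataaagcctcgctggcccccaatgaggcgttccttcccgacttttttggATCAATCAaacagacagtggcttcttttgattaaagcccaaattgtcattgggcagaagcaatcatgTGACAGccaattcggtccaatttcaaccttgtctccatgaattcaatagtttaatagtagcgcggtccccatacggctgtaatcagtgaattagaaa
MEIS2: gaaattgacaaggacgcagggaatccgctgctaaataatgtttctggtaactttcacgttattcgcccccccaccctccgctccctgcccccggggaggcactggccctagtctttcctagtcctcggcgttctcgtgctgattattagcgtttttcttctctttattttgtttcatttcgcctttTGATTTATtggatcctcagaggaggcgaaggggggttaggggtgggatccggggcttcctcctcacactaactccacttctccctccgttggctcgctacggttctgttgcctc
TGIF1, upstream window: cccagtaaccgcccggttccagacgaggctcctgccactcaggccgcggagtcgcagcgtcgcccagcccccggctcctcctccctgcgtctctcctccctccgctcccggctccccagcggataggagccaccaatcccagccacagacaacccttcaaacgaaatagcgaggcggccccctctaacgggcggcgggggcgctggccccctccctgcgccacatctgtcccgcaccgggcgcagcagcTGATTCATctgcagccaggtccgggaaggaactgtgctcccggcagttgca
TGIF1, downstream window: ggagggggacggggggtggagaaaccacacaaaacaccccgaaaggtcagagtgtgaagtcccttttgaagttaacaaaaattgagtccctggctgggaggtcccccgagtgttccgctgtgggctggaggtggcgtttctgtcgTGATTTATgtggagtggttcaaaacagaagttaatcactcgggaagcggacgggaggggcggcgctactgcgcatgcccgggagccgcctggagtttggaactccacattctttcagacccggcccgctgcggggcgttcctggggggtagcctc
HOXD13: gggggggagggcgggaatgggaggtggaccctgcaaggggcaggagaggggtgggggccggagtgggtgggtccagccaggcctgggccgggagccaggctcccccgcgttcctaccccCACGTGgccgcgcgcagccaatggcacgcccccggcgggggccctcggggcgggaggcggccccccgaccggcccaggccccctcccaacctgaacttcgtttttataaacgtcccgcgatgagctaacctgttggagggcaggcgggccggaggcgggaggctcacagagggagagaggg
PBX4: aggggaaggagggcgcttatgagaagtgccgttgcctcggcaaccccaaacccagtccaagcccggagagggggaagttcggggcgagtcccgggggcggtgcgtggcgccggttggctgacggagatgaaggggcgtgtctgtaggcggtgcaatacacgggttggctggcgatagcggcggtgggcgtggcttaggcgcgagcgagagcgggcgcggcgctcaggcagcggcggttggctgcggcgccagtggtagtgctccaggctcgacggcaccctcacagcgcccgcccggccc
The other motifs searched were found in shares of the member windows of 17.8% for TGACAG, 20% for CACGTG, 20% for the SOX core ACAAAG and 2.22% for the SOX core ACAATG, against 15.8%, 7.26%, 16.1% and 10.8% of all windows. A match describes letters in a window and is not a measured binding site. Member windows were rich in CpG, with a median of 23 CpG per 300 bases against 14 over all windows, and the window of PBX4 printed here holds 35. Among the members with no window at hand were HOXA5, HOXB2 to HOXB9, HOXB13, HOXC6, HOXC8 to HOXC13, HOXD9 and PKNOX2.

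A375 cells transcribed most of the family. Levels are given as CPM, a gene's count scaled to the size of its library with TMM factors, and between genes only as CPM per kilobase of annotated exon. In all, 40 of the 50 members reached 1 CPM in at least 1 group, and HOXB1 was the only member with no count in any of the 18 libraries, where a count of 3 would be 0.0359 to 0.0493 CPM. A low-count filter kept 45 members among 21060 tested genes. It left out HOXA7, HOXB1, HOXD1, HOXD4 and HOXD11, whose highest counts in any library were 14, 0, 9, 5 and 5. In control cells the highest levels per kilobase were those of HOXB2 (25.1), HOXB7 (19.3), HOXC10 (18.4), TGIF2 (14.9), PBX2 (9.32) and HOXC4 (9.07). HOXB2 acts in hindbrain patterning, HOXB7 and HOXC10 in trunk and hindlimb levels of the body axis. The HOXD cluster was split, with HOXD8, HOXD9 and HOXD13 at 1.99, 3.03 and 6.65 CPM per kilobase in control cells and HOXD1, HOXD3, HOXD4, HOXD11 and HOXD12 all at or under 0.0704. Of the PBX genes, PBX2 and PBX3 stood at 9.32 and 8.45 CPM per kilobase.

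**Figure D1:**
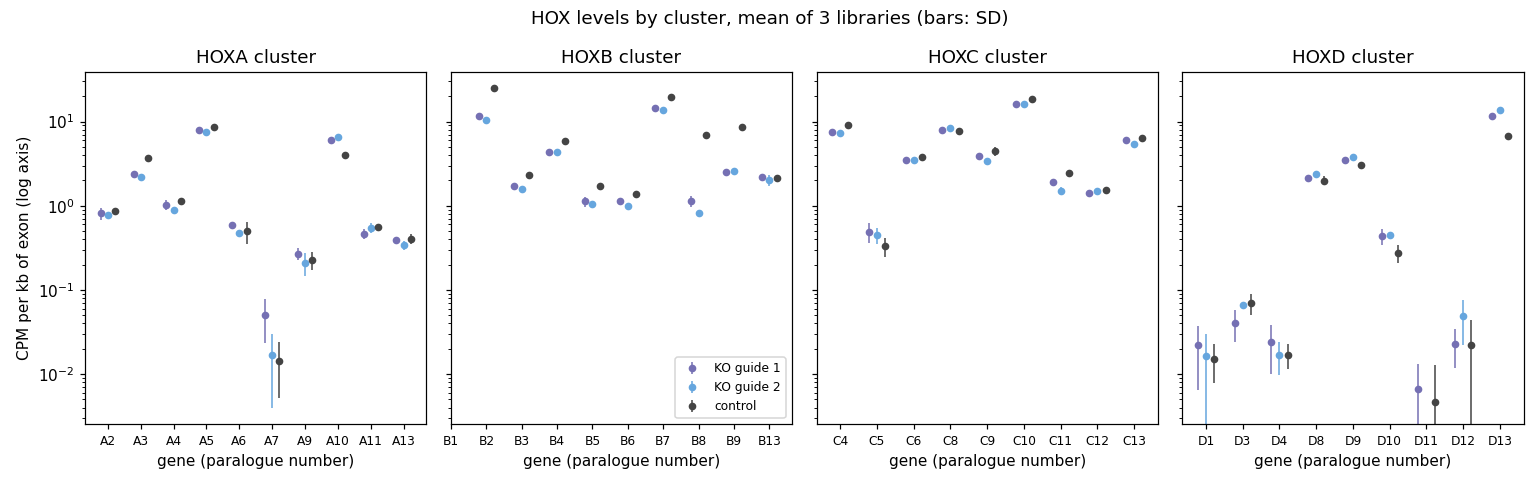
Mean CPM per kilobase of exon (log axis) of HOX genes, by cluster and paralogue number, in knockout guide 1, knockout guide 2 and control cells without SOX10 overexpression. Points are means of 3 libraries and bars their SD, with the lower bar cut short where the SD nears or exceeds the mean. HOXB1, with no count, and HOXD11 in guide 2 knockout cells, at 0.0019, have no point. HOXB2 to HOXB9 lie lower in both knockout groups than in control cells, HOXB8 at 1.13 and 0.809 against 6.83, while HOXD13 lies higher, at 11.6 and 13.7 against 6.65.

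The checks of the labels were as follows. TADA2B transcripts were at 26.0 ± 0.402 and 28.8 ± 1.37 CPM in knockout cells with guide 1 and guide 2, against 32.5 ± 0.318 CPM in control cells (SD, n = 3 each), and the edited site is not given, so the transcript level does not test the edit. SOX10 transcripts were at 291 ± 13.9 and 246 ± 5.44 CPM in knockout cells with SOX10 overexpression, 83.6 ± 3.02 and 43.4 ± 3.16 CPM in knockout cells, 452 ± 1.57 CPM in control cells with SOX10 overexpression and 354 ± 12.2 CPM in control cells. Each library held 58573910 to 79874237 counts. Of the melanocyte markers, SOX10, MITF and S100B were well detected, TYR was too low to test, and PMEL was at 0.869, 0.795 and 0.412 CPM in guide 1, guide 2 and control cells. Marker genes of other cell types moved too. The summed CPM of 6 fibroblast markers was 29.6 to 36.0 in knockout libraries against 4.87 to 6.55 in control libraries, and that of 6 epithelial markers 296 to 338 against 176 to 177. The summed CPM of the 8 melanocyte markers was 135 to 178 in knockout libraries against 396 to 422 in control libraries, but most of that was SOX10 itself, and the 7 markers without it summed to 87.2 to 99.2 CPM in knockout libraries against 55.9 to 57.4 CPM in control libraries. The markers did not move as one. Of 7 tested, SOX10 among them, 3 rose and 4 fell in knockout cells (3 and 3 with library totals), with a median log2 fold change of −0.46. Over all tested genes 28.6% rose and 29.5% fell. The sums of 5 leukocyte and 4 endothelial markers stayed at or under 9.21 CPM in knockout and control libraries without SOX10, with CD3E and the epithelial marker CDH1 at no more than 4 and 3 counts in any library. Their part in the results on HOX and TALE genes was not tested.

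The share of members that changed on knockout of TADA2B was near that of all tested genes. Averaged over both guides, 29 of the 45 tested members passed an adjusted p under 0.05 in edgeR's quasi-likelihood test, which is 64.4% against 58.1% of all tested genes. Of these, 8 rose and 21 fell, where 28.6% of all tested genes rose and 29.5% fell. The median log2 fold change was −0.15 over the tested members and −0.01 over all tested genes. Of the members, 7 were called with a change of at least 2-fold, against 15% of all tested genes, and PKNOX2, HOXB8, HOXB9, HOXB2 and TGIF1 fell by that much. With library totals in place of TMM factors the median of all tested genes moved to 0.15, and the members split into 12 higher and 15 lower. Of all called genes 72% were higher under that scaling, against 44.4% of the called members. In bulk RNA, fewer cells of a type and less RNA per cell cannot be told apart.

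**Figure D2:**
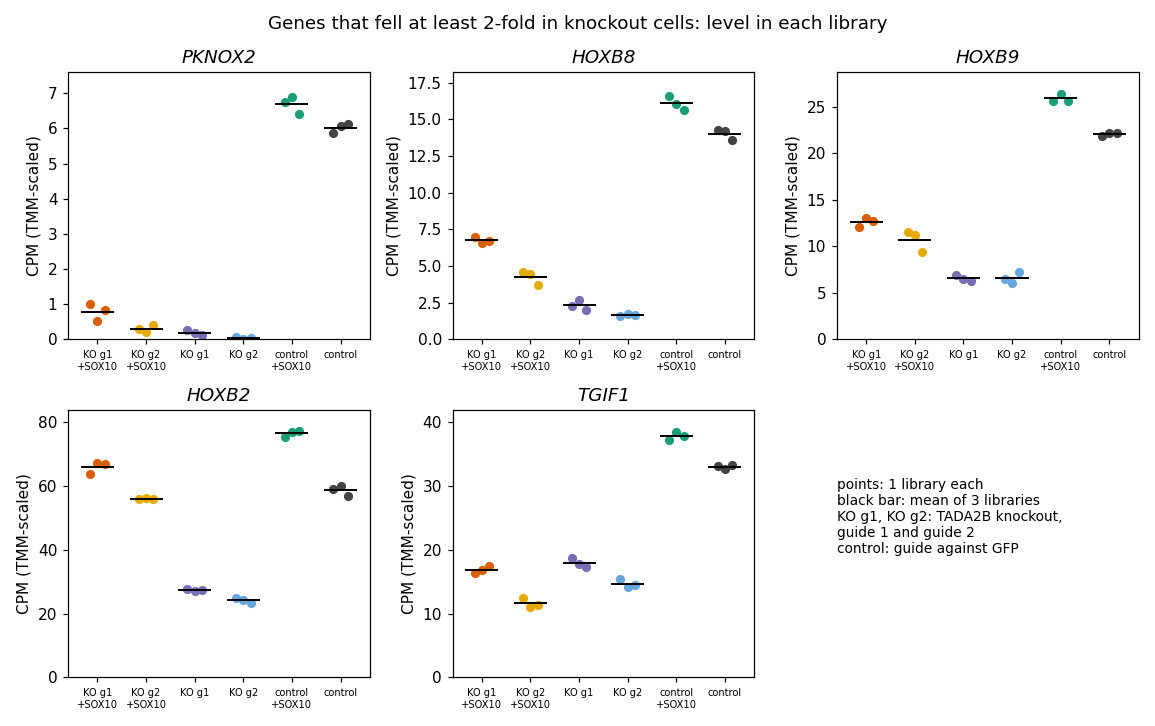
TMM-scaled CPM of 5 members that fell at least 2-fold in knockout cells, in every library; each point is 1 library, the black bar the mean of 3, and the groups run from knockout with SOX10 on the left to control on the right. In both knockout groups HOXB8 lies at 1.62 to 2.67 CPM, below all other groups, and PKNOX2 at 0.0147 to 0.250 CPM, while HOXB2 stands at 23.3 to 27.5 CPM there and at 55.8 to 67.2 CPM in the knockout groups with SOX10.

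Among the TALE genes, 3 rose and 6 fell of 11 tested in knockout cells (with library totals 4 rose and 4 fell). That is 81.8% called, against 58.1% of all tested genes (28.6% rose and 29.5% fell). PKNOX2 (ENSG00000165495, hg38 chr11:125164687-125433389, plus strand) encodes a MEIS-like partner of PBX proteins. It was at 0.250, 0.166 and 0.113 CPM in guide 1 knockout libraries and 0.0599, 0.0147 and 0.0361 CPM in guide 2 libraries, against 5.87, 6.06 and 6.12 CPM in control libraries. The guide 2 libraries held 9 counts in all and the guide 1 libraries 39, against 1201 in the control libraries. With SOX10 overexpression PKNOX2 was at 0.996, 0.520 and 0.822 CPM in guide 1 knockout libraries, 0.280, 0.205 and 0.411 CPM in guide 2 libraries and 6.75, 6.90 and 6.41 CPM in control libraries. Every knockout library, with or without SOX10, lay under every control library. Guide 1 knockout gave a log2 fold change of −5.10 (SE 0.210), guide 2 knockout one of −7.23 (SE 0.267), and guide 2 was lower than guide 1 by a log2 difference of −2.14 (SE 0.504, adjusted p = 0.00307, edgeR). SOX10 overexpression raised PKNOX2 in knockout cells by 2.51 (SE 0.259, adjusted p = 4.44e-11, edgeR), and the knockout with SOX10 still lay at a log2 fold change of −3.65 (SE 0.142) against control. PKNOX1, the more widely expressed relative, stood at 32.4 and 31.9 CPM in guide 1 and guide 2 knockout cells against 36.0 CPM in control cells, a log2 fold change of −0.16 (SE 0.038) that is not called with library totals.

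TGIF1 (ENSG00000177426, hg38 chr18:3411608-3459978, plus strand), whose windows are printed above, encodes a repressor of TGF-beta and retinoid responses. It was at 18.7, 17.8 and 17.4 CPM in guide 1 knockout libraries and 15.4, 14.2 and 14.4 CPM in guide 2 libraries, against 33.1, 32.7 and 33.4 CPM in control libraries. With SOX10 overexpression it was at 16.4, 16.9 and 17.5 CPM in guide 1 knockout libraries, 12.4, 11.1 and 11.4 CPM in guide 2 libraries and 37.2, 38.6 and 37.9 CPM in control libraries. Knockout and control libraries did not overlap in either setting. The log2 fold change was −1.03 (SE 0.042, adjusted p = 1.2e-23, edgeR) without SOX10 and −1.43 (SE 0.042, adjusted p = 1.3e-28, edgeR) within SOX10-overexpressing cells. TGIF2, which has similar activity, was at 54.2 and 57.7 CPM in guide 1 and guide 2 knockout cells against 56.4 CPM in control cells and was not called (it was called higher, at 0.14, with library totals).

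The other TALE genes changed less. PBX4 and MEIS3 rose in knockout cells by 0.66 (SE 0.157) and 0.79 (SE 0.114) on the log2 scale. PBX4 was at 1.67 and 1.78 CPM in guide 1 and guide 2 knockout cells against 1.09 CPM in control cells. MEIS3 was at 3.73 and 3.75 CPM against 2.15 CPM. PBX3 fell by a log2 fold change of −0.56 (SE 0.041) and MEIS2, a cofactor in limb and neural crest development, by one of −0.25 (SE 0.035). PBX2, the most abundant PBX gene per kilobase, had −0.11 (SE 0.038), a call lost without control replicate 2 (adjusted p = 0.140, edgeR) and turned to a value of 0.05 with library totals. MEIS1 was not called, at −0.16 (SE 0.079).

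In the HOXB cluster 8 of 9 tested genes fell in knockout cells and none rose, also with RLE scaling or library totals. That is 88.9% called, against 58.1% of all tested genes (28.6% rose and 29.5% fell). HOXB8 and HOXB9, which act in the trunk and lie within the annotated span of HOXB7, had the largest falls of the cluster. HOXB8 (ENSG00000120068, hg38 chr17:48611377-48614939, minus strand) was at 2.28, 2.67 and 2.02 CPM in guide 1 knockout libraries and 1.62, 1.73 and 1.64 CPM in guide 2 libraries, against 14.3, 14.2 and 13.6 CPM in control libraries. With SOX10 overexpression it was at 7.00, 6.59 and 6.70 CPM in guide 1 knockout libraries, 4.56, 4.44 and 3.71 CPM in guide 2 libraries and 16.6, 16.1 and 15.7 CPM in control libraries. The 6 groups kept apart in every library. Knockout lowered HOXB8 by a log2 fold change of −2.84 (SE 0.074, adjusted p = 1.3e-30, edgeR), SOX10 in knockout cells raised it by 1.45 (SE 0.070, adjusted p = 2.28e-21, edgeR), and guide 2 was lower than guide 1 by a log2 difference of −0.48 (SE 0.111, adjusted p = 0.00228, edgeR).

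HOXB9 (ENSG00000170689, hg38 chr17:48621159-48626356, minus strand) was at 6.91, 6.48 and 6.21 CPM in guide 1 knockout libraries and 6.51, 6.09 and 7.22 CPM in guide 2 libraries, against 21.9, 22.2 and 22.1 CPM in control libraries. With SOX10 overexpression it was at 12.1, 13.0 and 12.7 CPM in guide 1 knockout libraries, 11.5, 11.2 and 9.39 CPM in guide 2 libraries and 25.6, 26.3 and 25.6 CPM in control libraries. Without SOX10 the values of the guides overlapped, while with SOX10 the guide 1 libraries all lay above the guide 2 libraries, and all knockout libraries lay under all control libraries. The knockout log2 fold change was −1.75 (SE 0.057, adjusted p = 3.02e-27, edgeR), and that of SOX10 in knockout cells was 0.82 (SE 0.050, adjusted p = 7.71e-18, edgeR).

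HOXB2 (ENSG00000173917, hg38 chr17:48540894-48544989, minus strand) was at 27.5, 27.2 and 27.5 CPM in guide 1 knockout libraries and 24.8, 24.3 and 23.3 CPM in guide 2 libraries, against 59.0, 59.9 and 56.9 CPM in control libraries. With SOX10 overexpression it was at 63.7, 67.2 and 66.7 CPM in guide 1 knockout libraries, 55.9, 56.1 and 55.8 CPM in guide 2 libraries and 75.4, 76.8 and 77.0 CPM in control libraries. The knockout libraries with SOX10 thus lay on both sides of the control libraries without it. HOXB2 fell in knockout cells by a log2 fold change of −1.19 (SE 0.031, adjusted p = 1.45e-30, edgeR) and rose by 1.24 (SE 0.026, adjusted p = 7.4e-34, edgeR) with SOX10 in knockout cells. Knockout with SOX10 differed from control by 0.05 (SE 0.031, adjusted p = 0.155, edgeR), which passed the test at 0.20 with library totals.

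HOXB3, HOXB4, HOXB5, HOXB6 and HOXB7 fell in knockout cells by log2 fold changes of −0.50, −0.41, −0.65, −0.38 and −0.48. HOXB7, the most abundant of them per kilobase, was at 21.9 and 20.6 CPM in guide 1 and guide 2 knockout cells against 29.5 CPM in control cells. HOXB13, a caudal gene that lies apart from the rest of the cluster, was not called, at −0.02 (SE 0.076). HOXB3, HOXB4 and HOXB6 share 7.9%, 17.1% and 16.6% of their exon bases with a gene on the same strand, while HOXB7, HOXB8 and HOXB9 share none. HOXB2 shares 3.7% with a gene on the opposite strand.

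In the other clusters the share called in knockout cells was near or under the 58.1% of all tested genes (28.6% rose and 29.5% fell). With TMM factors the called genes ran both ways in the HOXA cluster only. The HOXA cluster had 2 genes that rose and 2 that fell of 10 tested (40% called). HOXA10, which patterns the uterus and limb and acts in leukaemia, rose by 0.65 (SE 0.046), at 22.1 and 24.1 CPM in guide 1 and guide 2 knockout cells against 14.7 CPM in control cells. HOXA3, a pharyngeal gene, fell by a log2 fold change of −0.69 (SE 0.057), at 10.1 and 9.49 CPM against 15.8 CPM. HOXA5 had −0.13 (SE 0.055), a call that was lost under 9 of the alternative analyses (4 other scalings, filters or tools, and the removal of control replicate 1 or 3, guide 1 replicate 3 or guide 2 replicate 2 or 3), and its value was 0.03 with library totals. HOXA9, a leukaemia gene, was not called, at 0.82 and 0.63 CPM in guide 1 and guide 2 knockout cells against 0.69 CPM in control cells.

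Of the 9 tested HOXC genes 5 fell and none rose in knockout cells (55.6% called, against 58.1% of all tested genes). With library totals, however, 2 fell and 2 rose. HOXC11 had the largest of these changes, −0.53 (SE 0.076), at 6.18 and 4.92 CPM in guide 1 and guide 2 knockout cells against 7.97 CPM in control cells. HOXC4, HOXC9, HOXC10 and HOXC13 had −0.30, −0.29, −0.18 and −0.14, and of these HOXC9, HOXC10 and HOXC13 were not called with library totals. The call of HOXC13 was also lost under 4 other settings and without any 1 of the control libraries, guide 1 replicate 2 or guide 2 replicate 2. Of the 6 tested HOXD genes 3 rose and none fell (50% called; 4 rose and none fell with library totals). HOXD13, the digit and genital gene at the end of the cluster, rose by 0.92 (SE 0.048, adjusted p = 5.05e-20, edgeR). It was at 25.9 and 30.6 CPM in guide 1 and guide 2 knockout cells against 14.9 CPM in control cells. HOXD10 rose by 0.69 (SE 0.181) and HOXD9 by 0.25 (SE 0.076), both of them limb genes.

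**Figure D3:**
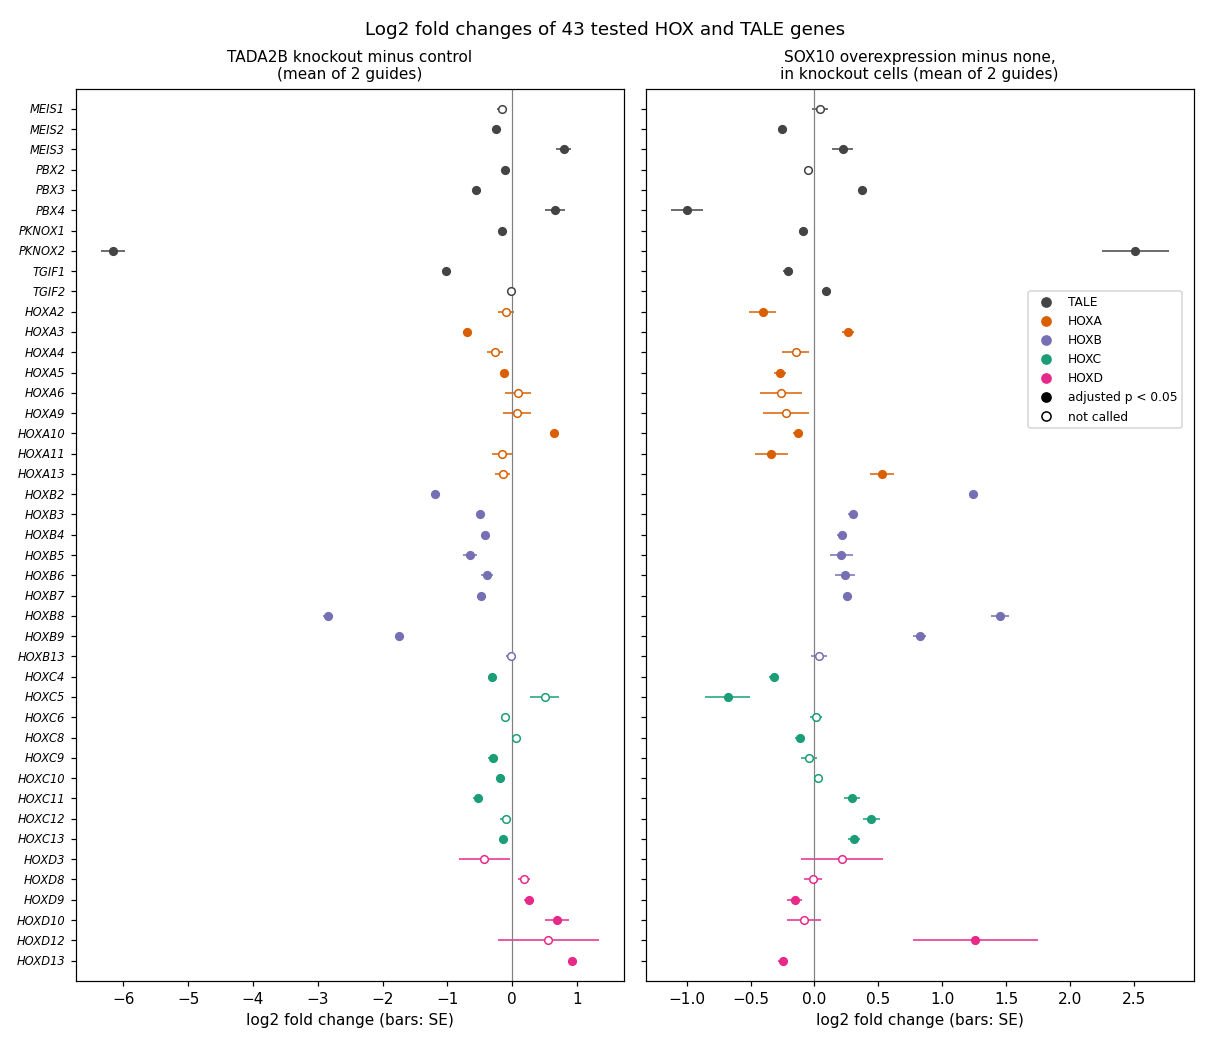
Log2 fold changes of 43 tested members with their SE, for knockout against control (left) and for SOX10 overexpression against none in knockout cells (right), each the mean of both guides; filled points had an adjusted p under 0.05. PKNOX2 lies far to the left at −6.16 in the first and to the right at 2.51 in the second, and HOXB8 at −2.84 and 1.45.

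Each guide was also compared with control cells on its own. Guide 1 called 24 of 45 members (7 higher and 17 lower), against 52.6% of all tested genes (26.2% higher and 26.4% lower). Guide 2 called 31 (9 higher and 22 lower), against 55.9% of all tested genes (27.9% higher and 28.1% lower). With library totals the splits were 11 higher and 13 lower for guide 1 and 12 and 16 for guide 2. Of all called genes 73% and 71.8% were then higher, against 45.8% and 42.9% of the called members. Both comparisons share the control libraries. Set against each other directly, guide 2 differed from guide 1 in 8 members, against 8.74% of all tested genes (2.65% higher and 6.09% lower). Of these, HOXD13 was higher with guide 2, by 0.24 (SE 0.051), and 7 were lower: PKNOX2, HOXB8, HOXB2, HOXC11, MEIS2, PBX3 and TGIF1. PBX3 was not called with library totals. The transcript level of SOX10 was lower with guide 2 as well, at 43.4 CPM against 83.6 CPM with guide 1, and its part in these differences was not tested.

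SOX10 overexpression in knockout cells changed 33 of 45 members, 18 higher and 15 lower, which is 73.3% against 56.2% of all tested genes (28.1% higher and 28.1% lower). Marker sums moved across the same libraries. The 7 melanocyte markers other than SOX10 were at 108 to 119 CPM in guide 1 and 81.4 to 86.6 CPM in guide 2 knockout libraries with SOX10, against 87.2 to 90.9 CPM in guide 1 and 93.9 to 99.2 CPM in guide 2 libraries without it. The 4 endothelial markers were at 28.3 to 35.2 CPM with SOX10 against 1.89 to 2.31 CPM without it, of which KDR alone gave a mean of 27.7 and 33.1 CPM in guide 1 and guide 2 knockout cells with SOX10. The leukocyte markers were at 18.3 to 21.7 CPM with SOX10 against 5.29 to 9.00 CPM without it, nearly all of it LYZ, the fibroblast markers at 44.1 to 51.7 CPM against 29.6 to 36.0 CPM, mostly LUM, and the epithelial markers at 234 to 281 CPM against 296 to 338 CPM. Their part was not tested. The knockout libraries without SOX10 enter both this comparison and the one of knockout against control. The HOXB cluster rose, with 8 of 9 tested genes higher and none lower (7 with other scalings, as HOXB5 was lost). Beside HOXB8, HOXB9 and HOXB2, the genes HOXB3, HOXB4, HOXB6 and HOXB7 rose by 0.30, 0.21, 0.24 and 0.26. HOXB7 was at 26.7 and 24.1 CPM in guide 1 and guide 2 knockout cells with SOX10, against 21.9 and 20.6 CPM in those without it. Of the 10 tested HOXA genes 5 were lower and 2 higher. HOXA2, a hindbrain and cranial neural crest gene whose window is printed above, was lower by a log2 fold change of −0.40 (SE 0.104), HOXA5 by one of −0.27 (SE 0.046) and HOXA10 by one of −0.13 (SE 0.036). HOXA13, the most caudal HOXA gene, and HOXA3 were higher by 0.53 (SE 0.094) and 0.26 (SE 0.048).

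Of the 9 tested HOXC genes 3 rose and 3 fell in knockout cells with SOX10 (66.7% called, against 56.2% of all tested genes). HOXC12, HOXC13 and HOXC11, neighbours at one end of the cluster, were higher by 0.44 (SE 0.067), 0.31 (SE 0.046) and 0.30 (SE 0.063). HOXC4 and HOXC5, neighbours at its other end, were lower by log2 fold changes of −0.32 (SE 0.042) and −0.68 (SE 0.177). HOXC5 shares 59.9% of its exon bases with a further row of the same name and strand. That row is not protein-coding and was left out, so reads of HOXC5 could be split between them. HOXC8 was lower by one of −0.11 (SE 0.041), a call lost when 1 of 4 libraries was left out (guide 1 with SOX10 replicate 1 or 3, guide 2 replicate 3, or guide 2 with SOX10 replicate 1). Of the HOXD genes HOXD13 fell by a log2 fold change of −0.25 (SE 0.037), at 22.9 and 24.6 CPM in guide 1 and guide 2 knockout cells with SOX10, against 25.9 and 30.6 CPM without it. HOXD12 rose by 1.26 (SE 0.488), but on 5 to 16 counts per library with SOX10, against 1 to 7 without it, and its call was lost when 1 of 4 libraries was left out (guide 1 or guide 2 replicate 1, guide 1 with SOX10 replicate 3 or guide 2 with SOX10 replicate 2).

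Of the 11 tested TALE genes 4 rose and 5 fell with SOX10 in knockout cells (81.8% called, against 56.2% of all tested genes). PBX4 fell by a log2 fold change of −0.9996 (SE 0.127, adjusted p = 7.88e-09, edgeR), just short of 2-fold. It was at 0.802, 0.546 and 0.997 CPM in guide 1 knockout libraries with SOX10 and 0.927, 0.957 and 0.970 CPM in guide 2 libraries with SOX10, against 1.74, 1.51 and 1.76 CPM in guide 1 and 1.80, 1.73 and 1.82 CPM in guide 2 libraries without it. PBX3 rose by 0.37 (SE 0.034), at 35.5 and 31.9 CPM in guide 1 and guide 2 knockout cells with SOX10 against 27.4 and 24.7 CPM without it. TGIF2 rose by 0.09 (SE 0.028) and MEIS2 fell by a log2 fold change of −0.26 (SE 0.029).

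In control cells SOX10 overexpression changed 16 of 45 members (11 higher and 5 lower), which is 35.6% against 34.4% of all tested genes (17.3% higher and 17.2% lower). Without control replicate 3 the count was 9. Between the same libraries the 7 melanocyte markers other than SOX10 summed to 275 to 282 CPM with SOX10 against 55.9 to 57.4 CPM without it, the endothelial markers to 10.6 to 11.0 CPM against 3.28 to 4.55 CPM and the fibroblast markers to 9.69 to 11.2 CPM against 4.87 to 6.55 CPM. The epithelial markers summed to 141 to 142 CPM with SOX10 against 176 to 177 CPM without it, and the leukocyte markers to 5.29 to 6.11 CPM against 8.32 to 9.21 CPM; their part was not tested. Of the HOXB genes 6 of 9 were higher and none lower: HOXB2 by 0.38 (SE 0.035), HOXB7 by 0.34 (SE 0.051), HOXB4 by 0.32 (SE 0.053), HOXB9 by 0.23 (SE 0.062), and HOXB13 and HOXB8 by less firmly called 0.24 (SE 0.087) and 0.20 (SE 0.076). The call of HOXB8 was lost whichever of the 6 control libraries, with or without SOX10, was left out. That of HOXB13 was lost without control replicate 2 or 3 or without control with SOX10 replicate 1 or 3. HOXA2 had the largest fall, a log2 fold change of −0.94 (SE 0.155), at 1.10 CPM in control cells with SOX10 against 2.10 CPM in control cells. MEIS3 rose by 0.52 (SE 0.131), at 3.09 CPM against 2.15 CPM. HOXD12 had a larger value, 2.24 (SE 0.728), on 8 to 13 counts per library with SOX10 against 0 to 4 without it, and lost its call without control replicate 3.

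The effect of SOX10 differed between knockout and control cells for 17 of 45 members (11 higher and 6 lower in the difference), which is 37.8% against 33.3% of all tested genes (18.1% higher and 15.1% lower). It was tested as an interaction, the log2 fold change of SOX10 in knockout cells minus that in control cells. The start level and the rise of SOX10 transcripts, given above, also differed between knockout and control cells. The test thus does not compare equal amounts of SOX10, and the part of its level was not tested. The difference was 2.36 (SE 0.298) for PKNOX2, 1.25 (SE 0.103) for HOXB8, 0.86 (SE 0.044) for HOXB2 and 0.59 (SE 0.080) for HOXB9. The effect had opposite signs, each called on both sides, for HOXD13 and TGIF1, which fell in knockout cells and rose in control cells, and for HOXC11, which rose in knockout cells and fell in control cells. The control-cell side of the call was lost for HOXD13 without control replicate 1 or 3 or control with SOX10 replicate 1 or 2, and for HOXC11 without control replicate 2 or 3 or control with SOX10 replicate 1. For TGIF1 it held in all alternatives tried.

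**Figure D4:**
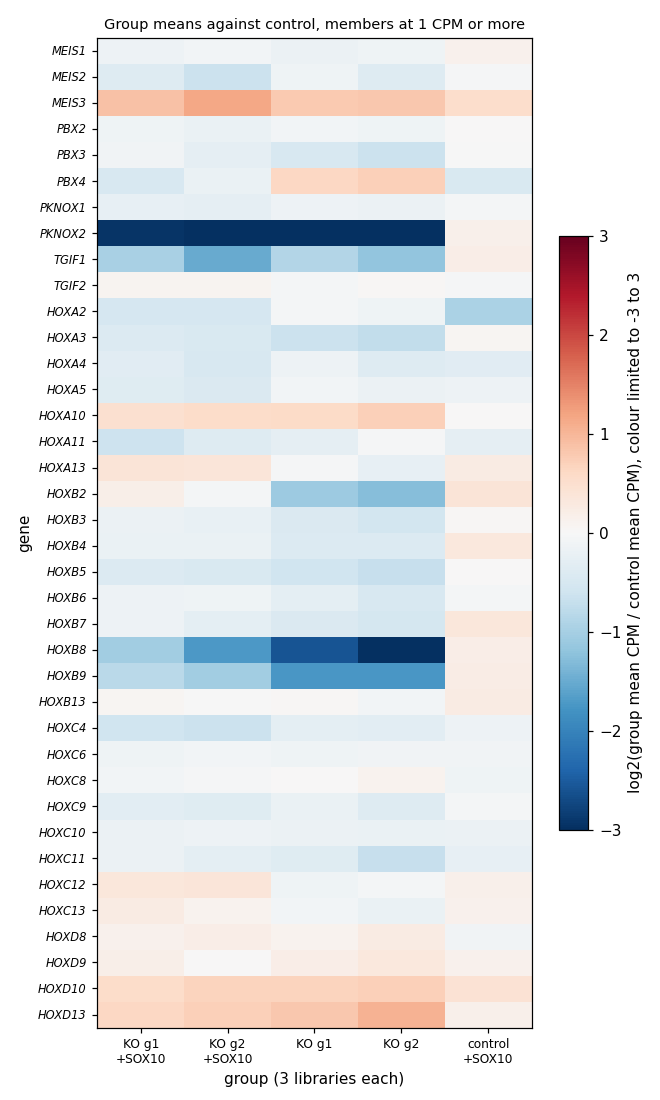
Log2 of the group mean CPM over the control mean for 38 members that reached 1 CPM in a group, one row a gene and one column a group of 3 libraries, with colours limited to −3 to 3. PBX4 is red only in the knockout groups without SOX10, HOXD13 is red in all 4 knockout groups, and PKNOX2, HOXB8, HOXB9 and TGIF1 are blue in all 4.

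With SOX10 on both sides, knockout still changed 29 of 45 members (9 higher and 20 lower), against 55% of all tested genes (28.2% higher and 26.7% lower), and with library totals the split was 15 higher and 11 lower. With those totals 74.5% of all called genes were higher, against 57.7% of the called members. All 8 called HOXB genes were lower (6 with library totals), among them HOXB8 by a log2 fold change of −1.59 (SE 0.067), HOXB9 by one of −1.15 (SE 0.054) and HOXB2 by one of −0.33 (SE 0.030). HOXD13 was higher by 0.52 (SE 0.048) and MEIS3 by 0.49 (SE 0.106). Knockout with SOX10 against control without it gave 31 called members (9 higher and 22 lower), against 57.9% of all tested genes (30% higher and 27.9% lower), or 13 higher and 12 lower with library totals. Here 73.5% of all called genes were higher with library totals, against 52% of the called members. In this comparison MEIS3, HOXD13 and HOXA10 were higher by 1.01, 0.67 and 0.52, and PKNOX2, HOXB8, TGIF1 and HOXB9 were lower by log2 fold changes of −3.65, −1.38, −1.24 and −0.92. PBX4 was not called.

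The regulators of HOX genes were described from lists chosen with earlier results of these data known. Of 36 tested Polycomb genes, 24 fell and 4 rose in knockout cells (77.8% called, against 58.1% of all tested genes), but 12 fell and 14 rose with library totals. Under that scaling 72% of all called genes were higher. EZH2, the H3K27 methyltransferase of the Polycomb repressive complex, was at 68.5 ± 1.55 and 65.2 ± 2.07 CPM in guide 1 and guide 2 knockout cells against 101 ± 2.47 CPM in control cells (SD, n = 3 each). CBX2, a reader of that mark, had a log2 fold change of −1.07 (SE 0.043), BCOR one of −0.81 (SE 0.028) and JARID2 one of −0.73 (SE 0.039). The median over the list was −0.15, against −0.01 over all tested genes. SOX10 in knockout cells was followed by a rise of 13 and a fall of 5 of these genes, which is 50% against 56.2% of all tested genes, with JARID2 rising by 0.68.

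Of 27 tested Trithorax and MLL genes, 20 fell and 2 rose in knockout cells (81.5% called, against 58.1% of all tested genes), but 11 fell and 10 rose with library totals, where 72% of all called genes were higher. AFF1, an elongation factor subunit and MLL fusion partner, rose by 0.63 (SE 0.035), while HCFC1, MLLT3 and PSIP1 had log2 fold changes of −0.42, −0.60 and −0.31. Of 18 tested noncoding RNAs and neighbours of the HOX clusters, 5 rose and 6 fell (6 and 4 with library totals), and the 61.1% called is near the 58.1% of all tested genes. HOXA-AS2, an antisense RNA of the HOXA cluster, had −1.19 (SE 0.123), at 1.12 and 1.08 CPM in guide 1 and guide 2 knockout cells against 2.51 CPM in control cells. The flanking genes SKAP2 beside HOXA, MTX2 beside HOXD and SMUG1 beside HOXC rose by 0.40, 0.27 and 0.26. Counts of antisense pairs cannot be told apart where the counting ignored strand, which is not given in the sources used here.

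Retinoids are the classical inducers of HOX genes. Of 13 tested genes of retinoid supply, breakdown and reception, 3 rose and 8 fell in knockout cells (5 and 7 with library totals), 84.6% called against 58.1% of all tested genes. ALDH1A3, which makes retinoic acid, was at 79.8 ± 2.13 and 47.1 ± 0.652 CPM in guide 1 and guide 2 knockout cells against 365 ± 7.55 CPM in control cells. CYP26B1, which degrades it, was at 16.1 ± 0.449 and 18.1 ± 1.26 CPM against 2.10 ± 0.238 CPM (SD, n = 3 each). The receptor gene RXRG and the retinal reductase gene DHRS3 had log2 fold changes of −5.50 and −2.25. Of 7 tested other homeobox genes (IRX, MKX, CDX and ParaHox types), 2 rose and 4 fell (3 and 4 with library totals), 85.7% called. MEOX2, a mesodermal homeobox gene, was at 35.4 and 27.6 CPM against 116 CPM, IRX3 and IRX5 had −0.81 and −1.13, and MKX had 3.44 (SE 0.713) at 0.186 and 0.174 CPM against 0.0150 CPM. Of 20 tested cofactors of HOX and PBX proteins, 4 rose and 13 fell (85% called; 5 and 5 with library totals), among them MAF at −3.53, CTBP2 at −0.38, SIN3A at −0.38 and HDAC1 at 0.22.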

How the data were processed

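The authors deposited raw read counts per gene, and per the submitters' processing notes HISAT2, HTSeq and genome build hg38 were used; the sources used here name no versions, annotation or strand setting. All 58721 identifiers were matched to GENCODE 29 for symbols, hg38 coordinates and exon lengths, and all columns matched 1 sample each. The count model was run with edgeR 4.0.16 under R 4.3.3: filterByExpr left 21060 genes, TMM factors were applied, and 1 robust quasi-likelihood model of 6 group means was fitted to 18 libraries (12 residual degrees of freedom, biological coefficient of variation 4.02%). Contrasts were tested two-sided by quasi-likelihood F, with p-values adjusted over all tested genes by Benjamini-Hochberg and called at an adjusted p under 0.05. CPM values and floors of 3 counts (0.0359 to 0.0493 CPM) cover counting error only.

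Libraries of a group differed by a chi-square of 3.54 to 11.8 per degree of freedom, so none was counted as a copy. A further row named HOXC5 that is not protein-coding was left out. Of the members, 20 share exon bases with a gene on the same strand and 21 with one on the opposite strand, so their reads could be split or mixed. Members given with every library had at least 1 CPM in a group and a called change of at least 2-fold in knockout against control, in SOX10 overexpression in control or knockout cells, or in their difference; PBX4 was added after its values were seen, and some genes that enter the counts are not reported here. From the other lists, at most 4 genes with the smallest adjusted p in knockout against control are named. Members, lists and rules were chosen with earlier results of these data known. Alternatives were RLE scaling, library totals, no filter, a mean CPM of at least 1, DESeq2 1.42.0, a replicate block and leaving out each library.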

Additional observations from a re-analysis of the deposited data

Results flagged for a closer look

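The effect of SOX10 overexpression differed between knockout and control cells in a test of the difference itself for the members named here, given as the log2 fold change in knockout cells minus that in control cells. SOX10 transcripts also started at different levels and rose by different amounts in knockout and control cells, and their part was not tested. The difference was positive for PKNOX2 (2.36), HOXB8 (1.25), HOXB2 (0.86), HOXB9 (0.59), HOXC11 (0.54), HOXA2 (0.53), PBX3 (0.39), HOXB3 (0.27), HOXA3 (0.21), HOXC10 (0.19) and TGIF2 (0.13). It was negative for TGIF1 (−0.41), HOXD13 (−0.40), HOXD9 (−0.29) and MEIS2 (−0.22). In HOXC11, HOXD13 and TGIF1 the effects in knockout and control cells had opposite signs. The differences of HOXA3, TGIF2, HOXD9, HOXA2 and HOXC10 lost their call under 14, 10, 8, 4 and 1 of the alternatives, and among them without control replicate 1 for HOXA3, HOXD9, HOXA2 and HOXC10 and without control replicate 2 for TGIF2.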

How the results depend on the processing

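Of 95 calls of a member in 4 comparisons (knockout against control, SOX10 in control cells, SOX10 in knockout cells, and their difference), 68 kept direction and call under all 6 alternative analyses and with each of the 18 libraries left out in turn, 1 (HOXC5 with SOX10 in knockout cells) kept them wherever it was run but was not tested at a mean CPM of at least 1, and 26 lost the call in at least 1 of them. Library totals in place of TMM factors turned 3 values of knockout against control, those of HOXA5 (0.026), HOXC13 (0.019) and PBX2 (0.047). Under this scaling the median of all tested genes was 0.15 in that comparison. Leaving out 1 library gave 27 to 31 called members for knockout against control (21 to 27 for guide 1, 28 to 31 for guide 2), 28 to 33 for SOX10 in knockout cells, 14 to 19 for the difference, 25 to 30 for knockout within SOX10-overexpressing cells, 30 to 32 for knockout with SOX10 against control, 6 to 8 for guide 2 against guide 1, and 9 to 17 for SOX10 in control cells, where 9 was the count without control replicate 3; the cause was not tested. Deviations from the group means correlated at −0.03 to 0.07 between libraries with the same replicate number and at −0.11 to 0.08 between those with different numbers. For 11 of the 18 libraries the mean correlation was highest with their own number. The numbers were not taken as pairs in the main model. With a replicate block the counts were 29, 33 and 18 for knockout against control, SOX10 in knockout cells and the difference, 17 for SOX10 in control cells, and no call was lost. Members at under 20 counts a library, such as HOXD12, and those that share exon bases are the least certain.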
